A study of Mus musculus with 8 samples.

Results

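Loss of Foxp1 in resting regulatory T (rTreg) cells is described here by RNA sequencing of 4 libraries, which are 4 of the 8 libraries of the study. The 4 libraries were taken by their labels, as the 2 Foxp1-deficient and the 2 wild-type (WT) rTreg samples, and they were paired by replicate number. WT cells came from Foxp3-YFP-Cre mice and Foxp1-deficient cells from Foxp1fl/fl Foxp3-YFP-Cre mice, all C57BL/6 and aged 6 to 8 weeks. Both genotypes carried the Foxp3-YFP-Cre knock-in, which makes Cre together with a yellow fluorescent protein (YFP) from the Foxp3 locus, so that loxP-flanked Foxp1 is cut in cells that have switched on Foxp3. The rTreg cells were sorted from spleen and peripheral lymph nodes as CD4+YFP+ cells with low CD44, among other markers. The other 4 libraries are of activated regulatory T (aTreg) cells, sorted with high CD44 from the same 2 genotypes, 2 libraries each, and they share the fit. The labels do not say whether each sample came from a single mouse or from a pool. The replicate numbers of the rTreg libraries differed in sex, as given below, so they came from different animals. The p-values measure the spread between these samples.

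Foxp1 is a forkhead transcription factor that is abundant in naive and other quiescent lymphocytes, where it is known for restraining growth and division. Regulatory T cells are CD4+ T cells that depend on the forkhead factor Foxp3 and suppress immune responses. The resting subset recirculates through lymphoid organs and gives rise to the activated subset after antigen encounter. The question of the comparison is which genes differ in the resting subset when Foxp1 is missing, and what they are known to do outside the cell cycle, oxidative phosphorylation, TGF-beta and Foxo genes.

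Counts summed to 10779438 and 13067352 in the WT and to 6373170 and 14384754 in the Foxp1-deficient rTreg libraries, replicate 1 first here and in every pair of values that follows. A level of 3 counts, used as the floor of what the depth can show, equals 0.209 to 0.471 CPM, which is the count of a gene scaled by the library total. Levels are CPM after TMM normalization. The first principal component held 60.3% of the variance and separated rTreg from aTreg libraries. The replicate numbers also differed in sex. Xist had at most 3 counts in the replicate 1 libraries and 15098 and 15813 in the replicate 2 libraries of rTreg cells, while 4 Y-linked genes had 4316 and 2143 counts in replicate 1 and 0 in replicate 2. Sex was therefore balanced between the genotypes and was part of the replicate block. Some libraries stood apart for a few genes. Both libraries of WT replicate 2, rTreg and aTreg, lay at least 4-fold below the 6 others in 6 genes and at least 4-fold above them in 10, and both libraries of Foxp1-deficient replicate 1 lay below the others in 12, among 9755 genes that reached 10 CPM in some library (1 CPM added to each value). These genes are named where they touch a result.

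The targeted gene, Foxp1 (ENSMUSG00000030067, chromosome 6 from 98925338 to 99522721 on the minus strand, GENCODE M21 annotation of GRCm38), had 353 and 384 CPM in WT and 342 and 338 CPM in Foxp1-deficient rTreg cells (log2 fold change -0.12, SE 0.094, adjusted p = 0.46). The levels of the genotypes lay close together, with the Foxp1-deficient libraries just below the WT ones. The count covers the whole gene, and which exons are removed is not stated in the sources used here, so it does not check the deletion in rTreg cells. In aTreg cells Foxp1 fell from 234 and 230.3 CPM to 126 and 102 CPM, a log2 fold change of -1.03 (SE 0.096, adjusted p = 0.0019). Foxp3, Cd4 and Cd44 were present in every rTreg library. Foxp3 had 492 and 646 CPM in WT and 429 and 480.1 CPM in Foxp1-deficient rTreg cells (log2 fold change -0.32, SE 0.084, adjusted p = 0.05). Both Foxp1-deficient libraries lay below the WT libraries, but Foxp3 did not pass the test at an adjusted p below 0.05 with a change of at least 1.5-fold. Cd4 had 592 and 628 CPM in WT and 837 and 936 CPM in Foxp1-deficient rTreg cells and Cd44 35.1 and 45.3 CPM in WT and 29.6 and 30.3 CPM in Foxp1-deficient rTreg cells, with log2 fold changes of 0.54 (adjusted p = 0.0012) and -0.43 (adjusted p = 0.034), both below 1.5-fold. In bulk RNA, fewer cells with a transcript and less transcript per cell cannot be told apart.

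Among 14540 genes tested, 421 were higher in Foxp1-deficient rTreg cells, or 2.90%, and 393 were lower, or 2.70%, at an adjusted p below 0.05 (quasi-likelihood test of edgeR, Benjamini-Hochberg) and a change of at least 1.5-fold. A gene that met both conditions is called here higher or lower, and said to have risen or fallen. At the adjusted p alone 956 of the 14540 genes were higher and 792 lower, and 50.4% had a log2 fold change above 0. Of the 814 called genes, 93 were in a list of 253 tested cell division and DNA replication genes, which is left aside. In 1 or more of 42 lists of genes by function or family were 234 of the called genes, a few of them also in the cell division list. The plot of called genes by function sets each list beside the share over all genes. The lists were chosen with earlier results of these data known, so a share above the background is a description only. Lists above the background on the lower side included cytokine receptors (20.5% of 44 tested), the semaphorin, plexin, ephrin and Notch genes (16.7% of 42), resting state genes (14.7% of 34) and genes of Treg identity (12.9% of 31). Ion channels had 12.9% of 62 lower. On the higher side the lists included activation and effector genes (14.3% of 42), tyrosine phosphatases (12.5% of 24), interferon-stimulated genes (12.2% of 74) and DNA repair genes (12.1% of 91). The activation and effector genes were above the background on the lower side too, at 11.9%. Of 149 called genes taken by the rule for named genes, 58 kept their call in each alternative fit that tested them. Without the replicate block 67 of the 149 lost their call, as did 67 without WT replicate 2 and 79 without Foxp1-deficient replicate 2, and 83 lost it without at least 1 of the 4 rTreg libraries. A called gene given below with its own value kept its call in each alternative unless a loss is stated beside it.

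**Figure D1:**
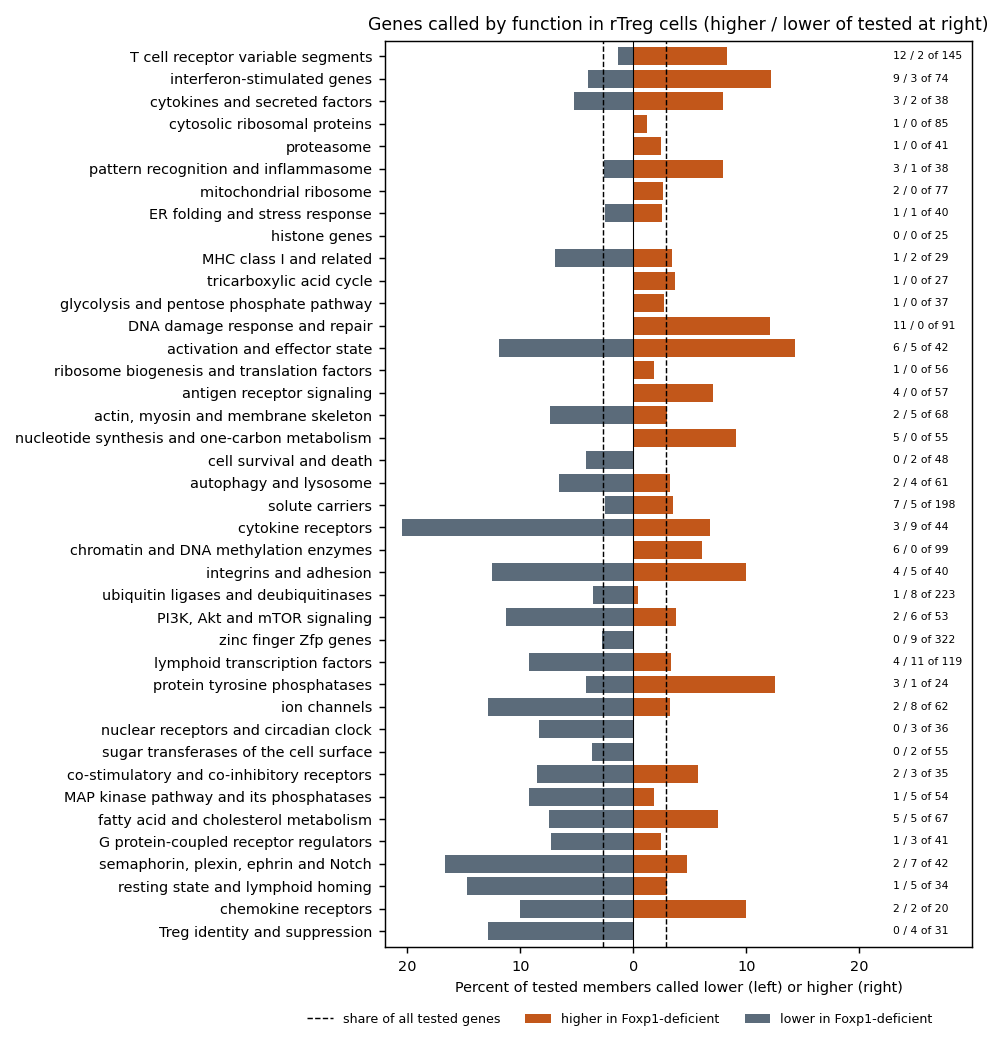
Percent of the tested members of gene lists with at least 20 tested genes called higher (right, orange) or lower (left, grey) in Foxp1-deficient rTreg cells, ordered by the median log2 fold change of the list; the numbers at the right are members called higher, called lower and tested. The dashed lines mark the shares over all tested genes, 2.90% higher and 2.70% lower. Cytokine receptors reach furthest to the left with 9 of 44. The lists were chosen with earlier results of these data known.

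The largest increases were of genes low or nearly silent in WT rTreg cells. Ptprf (ENSMUSG00000033295, chromosome 4 from 118208213 to 118291405 on the minus strand) encodes a receptor protein tyrosine phosphatase also known as LAR, and had 10.3 and 8.17 CPM in WT and 265 and 232 CPM in Foxp1-deficient rTreg cells (log2 fold change 4.75, SE 0.091, adjusted p = 5.9e-07). Qpct (ENSMUSG00000024084, chromosome 17 from 79051906 to 79090378 on the plus strand), which encodes an enzyme that cyclizes amino-terminal glutamine, had 0.461 and 0.5499 CPM in WT and 41.6 and 43.5 CPM in Foxp1-deficient rTreg cells (log2 fold change 6.37, SE 0.27, adjusted p = 3.4e-05). Mpzl2 (ENSMUSG00000032092, chromosome 9 from 45039799 to 45054015 on the plus strand), an immunoglobulin-type adhesion molecule, was not counted in WT cells (0 counts in each library) and reached 509 and 1099 counts without Foxp1, which is at least 314-fold higher when each WT library is set at 3 counts. The genotypes did not overlap in any of these genes, and within a genotype the replicates lay close together. The cytochrome P450 gene Cyp2s1 had 2.39 and 2.99 CPM in WT and 33.3 and 47.6 CPM in Foxp1-deficient rTreg cells (log2 fold change 3.91, SE 0.17, adjusted p = 3.4e-05). Kcnj16, which encodes an inwardly rectifying potassium channel, had 0.368 and 1.26 CPM in WT and 22.6 and 31.2 CPM in Foxp1-deficient rTreg cells (log2 fold change 5.005, SE 0.39, adjusted p = 0.00066). Ifi204, an interferon-inducible gene of the p200 family, had 4 and 1 counts in WT and 51 and 554 in Foxp1-deficient libraries, a ratio of 142 with a 95% counting interval of 60.5 to 438. Its increase was thus present in both pairs but uneven, with 8.13 and 40.01 CPM in the Foxp1-deficient libraries. Smaller increases were seen in Gbp11, of the guanylate-binding proteins and annotated as a polymorphic pseudogene (5.99 and 5.03 against 37.5 and 41.96 CPM, log2 fold change 2.86, SE 0.15, adjusted p = 8.6e-05), and in the ubiquitin ligase gene Hectd2 (5.53 and 5.34 against 36.2 and 40.9 CPM, log2 fold change 2.83, SE 0.14, adjusted p = 5.8e-05). Khdc1a, of a family of KH domain proteins (3.04), Gpsm2, a regulator of spindle orientation (2.36), and Rab4a, a GTPase of endosomal recycling (2.24), also rose, with log2 fold changes given in parentheses. App, the amyloid precursor gene, was called at 1.29 and 3.54 CPM in WT and 13.9 and 23.9 CPM in Foxp1-deficient rTreg cells (log2 fold change 3.02, SE 0.51, adjusted p = 0.011). App lost its call without the replicate block (adjusted p = 0.15) and without each of the 4 rTreg libraries in turn (adjusted p = 0.063 to 0.11).

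The largest decreases were of surface, secreted and signaling genes. Ahnak (ENSMUSG00000069833, chromosome 19 from 8989284 to 9076914 on the plus strand), which encodes a very large scaffold protein, fell from 319 and 399 CPM to 68.1 and 80.6 CPM (log2 fold change -2.27, SE 0.061, adjusted p = 3.9e-06). Prg4 (ENSMUSG00000006014, chromosome 1 from 150449412 to 150466165 on the minus strand), which encodes the secreted mucin-like protein lubricin, had 29.2 and 40.3 CPM in WT and 5.74 and 4.77 CPM in Foxp1-deficient rTreg cells (log2 fold change -2.77, SE 0.19, adjusted p = 0.00043). Stra6 (ENSMUSG00000032327, chromosome 9 from 58063788 to 58153996 on the plus strand), the cell surface receptor for retinol-binding protein, had 20.4 and 21.7 CPM in WT and 3.98 and 2.24 CPM in Foxp1-deficient rTreg cells (log2 fold change -2.86, SE 0.26, adjusted p = 0.0011). In each of these genes both Foxp1-deficient libraries lay far below both WT libraries. Sh3bgrl2, a small protein of the SH3 domain-binding glutamate-rich family, had 29.7 and 19.8 CPM in WT and 3.83 and 3.32 CPM in Foxp1-deficient rTreg cells (log2 fold change -2.73, SE 0.15, adjusted p = 8.6e-05). Plagl1, an imprinted zinc finger factor, had 15.7 and 14.9 CPM in WT and 2.87 and 2.96 CPM in Foxp1-deficient rTreg cells (log2 fold change -2.35, SE 0.22, adjusted p = 0.0013). Cd55, which protects cells from complement, had 44.8 and 68.98 CPM in WT and 8.93 and 15.02 CPM in Foxp1-deficient rTreg cells (log2 fold change -2.25, SE 0.17, adjusted p = 0.00058). The replicates of Cd55 differed more within a genotype than those of Plagl1, and Cd55 lost its call without the replicate block (adjusted p = 0.051). Calls with a large fitted decrease can also rest on 1 library. Kcnf1, a potassium channel subunit, had 4.51 and 47.1 CPM in WT and 1.75 and 1.52 CPM in Foxp1-deficient rTreg cells, and Gdpd3, a glycerophosphodiester phosphodiesterase, had 2.39 and 91.8 CPM in WT and 0.797 and 2.67 CPM in Foxp1-deficient rTreg cells. WT replicate 2 alone was high in both, as it was in aTreg cells, where the WT levels were 2.63 and 33.3 CPM for Kcnf1 and 2.41 and 80.7 CPM for Gdpd3. Kcnf1 lost its call without the replicate block (adjusted p = 0.23), with DESeq2 (adjusted p = 0.11), without WT replicate 2 (adjusted p = 0.23) and without Foxp1-deficient replicate 2 (adjusted p = 0.45). Gdpd3 lost its call without the replicate block (adjusted p = 0.3), with DESeq2 (adjusted p = 0.12), without WT replicate 2 (adjusted p = 0.47), without Foxp1-deficient replicate 1 (adjusted p = 0.076) and without Foxp1-deficient replicate 2 (adjusted p = 0.64). Rgs11 had a like pattern, at 7.46 and 27.3 CPM in WT and 3.98 and 5.200 CPM in Foxp1-deficient rTreg cells, and Rgs11 lost its call without the replicate block (adjusted p = 0.26), without WT replicate 2 (adjusted p = 0.26), without Foxp1-deficient replicate 1 (adjusted p = 0.061) and without Foxp1-deficient replicate 2 (adjusted p = 0.37).

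**Figure D2:**
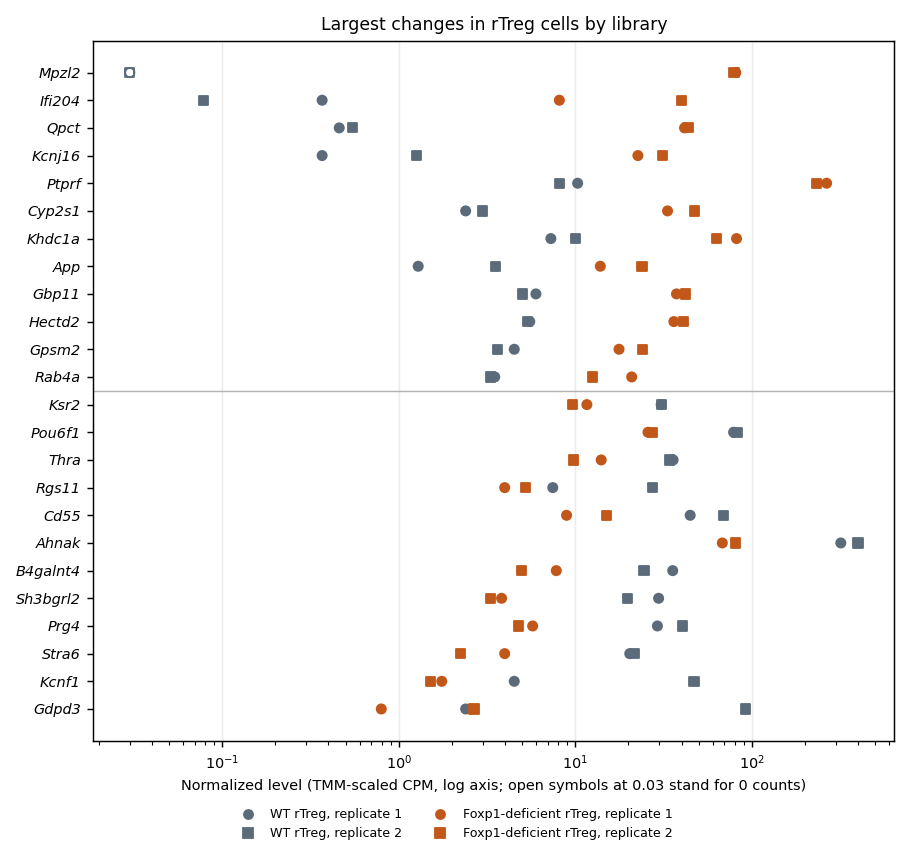
Levels in CPM on a log axis for the 12 genes with the largest increase (above the line) and the 12 with the largest decrease among called genes with a mean of at least 10 CPM, 1 point for each of the 4 rTreg libraries (circles replicate 1, squares replicate 2). Orange and grey points are apart for most genes, while in Kcnf1 and Gdpd3 the WT replicate 2 square stands alone at 47.1 and 91.8 CPM.

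Changes reached abundant genes too. Itga4 (ENSMUSG00000027009, chromosome 2 from 79255426 to 79333123 on the plus strand), the alpha 4 integrin subunit, rose from 565 and 671 CPM to 1356 and 1470 CPM (log2 fold change 1.196, SE 0.057, adjusted p = 5.8e-05). Ecm1, which encodes a secreted matrix protein known from T cell egress, rose from 259.6 and 224 CPM to 914 and 762 CPM (log2 fold change 1.79, SE 0.089, adjusted p = 6.5e-05). Tkt, the transketolase of the pentose phosphate pathway, rose from 172 and 164 CPM to 479.9 and 515 CPM (log2 fold change 1.56, SE 0.084, adjusted p = 8.7e-05). The kinase gene Hipk2 (1.26), the S-adenosylhomocysteine hydrolase-like gene Ahcyl2 (0.82) and Slc4a7, a sodium bicarbonate transporter (1.52), rose by the log2 fold changes in parentheses. Among abundant genes that fell, Itga6, the alpha 6 integrin subunit, had 417 and 429.8 CPM in WT and 229 and 226 CPM in Foxp1-deficient rTreg cells (log2 fold change -0.89, SE 0.066, adjusted p = 0.00053), and Atp2b1, a calcium pump of the plasma membrane, had 252 and 279 CPM in WT and 130.1 and 131 CPM in Foxp1-deficient rTreg cells (log2 fold change -1.03, SE 0.061, adjusted p = 0.00015). The genotypes did not overlap in either gene. Samhd1, which degrades deoxynucleotides and restricts viruses, was called lower at 1160 and 1358 CPM in WT and 722 and 894 CPM in Foxp1-deficient rTreg cells (log2 fold change -0.64, SE 0.09, adjusted p = 0.0054). Samhd1 lost its call without the replicate block (adjusted p = 0.11), with the gene length trend removed (adjusted p = 0.0054, a change below 1.5-fold), without Foxp1-deficient replicate 1 (adjusted p = 0.055) and without Foxp1-deficient replicate 2 (adjusted p = 0.058).

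Genes of Treg identity and suppression leaned lower. Of 31 tested, 4 fell and none rose, against 8 lower and 1 higher at the adjusted p alone, and the median log2 fold change was -0.32 beside 0.003 over all tested genes. The lean was alike in the pairs, at -0.27 and -0.30, and lay between -0.40 and -0.25 over the alternatives. The median of the same list was 0.12 in aTreg cells. Ctla4, the inhibitory receptor that competes with CD28, had 353 and 197 CPM in WT and 211 and 96.6 CPM in Foxp1-deficient rTreg cells (log2 fold change -0.88, SE 0.077, adjusted p = 0.00089). Its level depended as much on the replicate as on the genotype, since the lower WT library lay below the higher Foxp1-deficient one, while within each pair the Foxp1-deficient library was lower. Ctla4 lost its call without the replicate block (adjusted p = 0.51). Gpr83, a receptor high in Treg cells, had 373 and 274 CPM in WT and 152 and 93.5 CPM in Foxp1-deficient rTreg cells (log2 fold change -1.41, SE 0.18, adjusted p = 0.004). Entpd1, which encodes the ectoenzyme CD39 that degrades ATP, had 24.2 and 27.2 CPM in WT and 9.88 and 10.5 CPM in Foxp1-deficient rTreg cells (log2 fold change -1.32, SE 0.18, adjusted p = 0.0048). Itgb8, the integrin subunit with which Treg cells activate latent TGF-beta, had 12.1 and 13.98 CPM in WT and 6.85 and 5.49 CPM in Foxp1-deficient rTreg cells (log2 fold change -1.11, SE 0.2, adjusted p = 0.015). The genotypes were apart in Gpr83, Entpd1 and Itgb8. Gpr83 lost its call without Foxp1-deficient replicate 2 (adjusted p = 0.054). Entpd1 lost its call without Foxp1-deficient replicate 2 (adjusted p = 0.069). Itgb8 lost its call without WT replicate 2 (adjusted p = 0.089), without Foxp1-deficient replicate 1 (adjusted p = 0.064) and without Foxp1-deficient replicate 2 (adjusted p = 0.18). Over this list, without the replicate block 0 were called higher and 3 lower, and with 1 library left out in turn 0 to 3 were higher and 1 to 5 lower, the fewest calls without Foxp1-deficient replicate 2.

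Resting state genes also leaned lower, and activation genes moved both ways. Of 34 genes high in naive and resting T cells, 5 fell and 1 rose, with a median of -0.23, and the pairs gave -0.13 and -0.26. Besides Itga6, the members that fell were Actn1, an actin cross-linker (-0.87), Txnip, a brake on glucose uptake (-0.82), Il6st and Tsc22d3. Actn1 lost its call without each of the 4 rTreg libraries in turn (adjusted p = 0.055 to 0.13). Txnip lost its call without the replicate block (adjusted p = 0.21) and without Foxp1-deficient replicate 2 (adjusted p = 0.063). The median of this list was -0.34 in aTreg cells. The median stayed below 0 in each alternative, between -0.36 and -0.081, while without the replicate block 0 were called higher and 3 lower, and with 1 library left out in turn 0 were higher and 1 to 4 lower, the fewest calls without Foxp1-deficient replicate 2. Of 42 activation and effector genes, 6 rose and 5 fell, with a median of 0.086 that turned to -0.095 without Foxp1-deficient replicate 2 and to -0.055 without WT replicate 2. In this list, without the replicate block 3 were called higher and 2 lower, and with 1 library left out in turn 1 to 6 were higher and 2 to 5 lower, the fewest calls without Foxp1-deficient replicate 2. Cxcr3, the chemokine receptor of type 1 effector cells, was higher at 0.829 and 1.18 CPM in WT and 4.14 and 5.85 CPM in Foxp1-deficient rTreg cells (log2 fold change 2.33, SE 0.35, adjusted p = 0.007). Cxcr3 lost its call with limma-voom (adjusted p = 0.063), without WT replicate 2 (adjusted p = 0.053) and without Foxp1-deficient replicate 2 (adjusted p = 0.11). Ahnak and Crip1, a small LIM domain protein, were on the lower side of the same list. Crip1 had 65.02 and 73.5 CPM in WT and 25.2 and 36.5 CPM in Foxp1-deficient rTreg cells (log2 fold change -1.17, SE 0.094, adjusted p = 0.0007). Crip1 lost its call without the replicate block (adjusted p = 0.059). Il1rl1, the IL-33 receptor ST2 of tissue Treg cells, was low in all 4 libraries at 4.697 and 5.81 CPM in WT and 1.43 and 1.52 CPM in Foxp1-deficient rTreg cells (log2 fold change -1.94, SE 0.27, adjusted p = 0.0052). Il1rl1 lost its call without the replicate block (adjusted p = 0.16) and without Foxp1-deficient replicate 2 (adjusted p = 0.16).

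Receptors for cytokines fell more often than they rose. Of 44 tested chains, 9 fell and 3 rose, with a median of -0.024. Igf1r, the receptor for insulin-like growth factor 1, had 179 and 194 CPM in WT and 89.7 and 90.3 CPM in Foxp1-deficient rTreg cells (log2 fold change -1.05, SE 0.079, adjusted p = 0.00054), and the genotypes were apart by more than the replicates. The others that fell included Il1rl1, Il17rb, the receptor chain for IL-25 (-1.49), and Acvr1c, an activin receptor (-1.88). Il17rb lost its call with limma-voom (adjusted p = 0.054), without WT replicate 1 (adjusted p = 0.098), without Foxp1-deficient replicate 1 (adjusted p = 0.067) and without Foxp1-deficient replicate 2 (adjusted p = 0.26). Acvr1c lost its call without the replicate block (adjusted p = 0.18), with DESeq2 (adjusted p = 0.084) and without each of the 4 rTreg libraries in turn (adjusted p = 0.081 to 0.35). Il4ra, the shared chain of the IL-4 and IL-13 receptors, rose at 390.2 and 386 CPM in WT and 625 and 631 CPM in Foxp1-deficient rTreg cells (log2 fold change 0.69, SE 0.089, adjusted p = 0.004). Il4ra lost its call without WT replicate 2 (adjusted p = 0.052). Il1rl2, the IL-36 receptor, was called higher as well (1.87). Il1rl2 lost its call without the replicate block (adjusted p = 0.07) and without each of the 4 rTreg libraries in turn (adjusted p = 0.081 to 0.15). Over the cytokine receptors, without the replicate block 2 were called higher and 3 lower, and with 1 library left out in turn 0 to 2 were higher and 1 to 6 lower, the fewest calls without Foxp1-deficient replicate 2. Among the 38 cytokine and secreted factor genes, 3 rose (7.89%) and 2 fell (5.26%). Beside Ecm1, Lif, a cytokine of the IL-6 family, had 15.1 and 4.09 CPM in WT and 47.8 and 25.9 CPM in Foxp1-deficient rTreg cells (log2 fold change 2.099, SE 0.21, adjusted p = 0.0014). Replicate 1 was the higher library in both genotypes, and Lif lost its call without the replicate block (adjusted p = 0.26).

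Chemokine receptors and adhesion genes split by member. Of the chemokine receptors 10% rose and 10% fell, of the adhesion genes 10% and 12.5%. Of the co-stimulatory and co-inhibitory receptors 5.71% rose and 8.57% fell, beside 2.90% and 2.70% over all tested genes. Of 20 chemokine receptors, 2 rose and 2 fell, and the median was -0.31, or -0.14 without WT replicate 1. For these receptors, without the replicate block 1 were called higher and 1 lower, and with 1 library left out in turn 0 to 1 were higher and 1 to 2 lower, the fewest calls without WT replicate 1, without WT replicate 2 and without Foxp1-deficient replicate 2. Cxcr5, the receptor that guides lymphocytes to B cell follicles, fell from 9.49 and 8.799 CPM to 4.14 and 3.25 CPM (log2 fold change -1.32, SE 0.14, adjusted p = 0.0018). Cxcr4, which retains cells in bone marrow and lymphoid tissue, was called lower at 211 and 104 CPM in WT and 103 and 36.9 CPM in Foxp1-deficient rTreg cells, where the WT replicate 2 and Foxp1-deficient replicate 1 libraries were alike. Cxcr4 lost its call without the replicate block (adjusted p = 0.37), without WT replicate 1 (adjusted p = 0.068), without WT replicate 2 (adjusted p = 0.071) and without Foxp1-deficient replicate 2 (adjusted p = 0.13). Ccr4, a receptor for skin homing, was called higher with Cxcr3 (0.82). Ccr4 lost its call without the replicate block (adjusted p = 0.061), without WT replicate 1 (adjusted p = 0.11), without WT replicate 2 (adjusted p = 0.11) and without Foxp1-deficient replicate 1 (adjusted p = 0.055). Of 40 integrin and adhesion genes, 4 rose and 5 fell, while without the replicate block 3 were called higher and 2 lower, and with 1 library left out in turn 3 to 4 were higher and 2 to 4 lower, the fewest calls without WT replicate 2 and without Foxp1-deficient replicate 2. Icam1, a ligand of the integrin LFA-1, had 57.7 and 47.2 CPM in WT and 108 and 125 CPM in Foxp1-deficient rTreg cells (log2 fold change 1.16, SE 0.13, adjusted p = 0.0028), and rose together with Itga4 and Mpzl2, while Itga6 and Itgb8 fell. In the 35 co-stimulatory and co-inhibitory receptors, Slamf6, a self-ligand receptor of the SLAM family, rose from 182 and 208 CPM to 396 and 357 CPM (log2 fold change 0.95, SE 0.083, adjusted p = 0.00089) and its relative Slamf1 was called higher too, whereas Ctla4, Cd200r1 and Tnfrsf10b were called lower. In that list, without the replicate block 2 were called higher and 0 lower, and with 1 library left out in turn 2 to 3 were higher and 1 to 2 lower, the fewest calls without WT replicate 2 and without Foxp1-deficient replicate 2. Cd200r1 lost its call without the replicate block (adjusted p = 0.099), with limma-voom (adjusted p = 0.055) and without each of the 4 rTreg libraries in turn (adjusted p = 0.052 to 0.16). Tnfrsf10b lost its call without the replicate block (adjusted p = 0.055), without WT replicate 1 (adjusted p = 0.051), without WT replicate 2 (adjusted p = 0.13) and without Foxp1-deficient replicate 2 (adjusted p = 0.18).

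In the list of antigen receptor signaling genes 4 of 57 rose (7.02%) and none fell, and 13 were higher and 4 lower at the adjusted p alone. Tec, a tyrosine kinase of antigen receptor signaling, had 11.5 and 12.02 CPM in WT and 26.5 and 33.1 CPM in Foxp1-deficient rTreg cells (log2 fold change 1.34, SE 0.13, adjusted p = 0.0012). Ubash3b, a phosphatase that dampens receptor signals, had 57.8 and 53.5 CPM in WT and 142 and 125 CPM in Foxp1-deficient rTreg cells (log2 fold change 1.26, SE 0.13, adjusted p = 0.0019). Trac, the constant segment of the T cell receptor alpha chain, had 193 and 163 CPM in WT and 347 and 436 CPM in Foxp1-deficient rTreg cells (log2 fold change 1.14, SE 0.17, adjusted p = 0.0077), and the genotypes did not overlap in these genes. Trac lost its call without WT replicate 2 (adjusted p = 0.075) and without Foxp1-deficient replicate 2 (adjusted p = 0.091). Trat1, a transmembrane adaptor of the receptor (0.79), was the other member. Trat1 lost its call without the replicate block (adjusted p = 0.079). Of 145 T cell receptor segments tested, constant and joining segments included, 12 rose (8.28%) and 2 fell (1.38%), and the median was 0.28. The segments are short and nearly identical copies can share reads, and the median was 0.099 once the gene length trend had been removed. Trav10 had 0.553 and 0.707 CPM in WT and 3.67 and 2.96 CPM in Foxp1-deficient rTreg cells (log2 fold change 2.34, SE 0.36, adjusted p = 0.0083). Trav10 lost its call without each of the 4 rTreg libraries in turn (adjusted p = 0.052 to 0.066). Among the segments, without the replicate block 2 were called higher and 0 lower, and with 1 library left out in turn 0 to 7 were higher and 0 to 1 lower, the fewest calls without WT replicate 2 and without Foxp1-deficient replicate 2. Of 24 protein tyrosine phosphatase genes, Ptprf, Ptpn21 and Ptpn3 rose (12.5%) and Ptprj fell (4.17%). Ptpn21, a cytosolic phosphatase with a membrane-linker domain, had 8.66 and 8.96 CPM in WT and 21.7 and 34.7 CPM in Foxp1-deficient rTreg cells (log2 fold change 1.69, SE 0.19, adjusted p = 0.0027). Ptprj, which encodes the receptor phosphatase CD148, had 8.38 and 9.82 CPM in WT and 3.98 and 3.32 CPM in Foxp1-deficient rTreg cells (log2 fold change -1.36, SE 0.22, adjusted p = 0.0095). Ptprj lost its call without WT replicate 2 (adjusted p = 0.071) and without Foxp1-deficient replicate 2 (adjusted p = 0.15). Ptpn3 lost its call without the replicate block (adjusted p = 0.099), with counts thinned to the shallowest library (adjusted p = 0.086), without WT replicate 2 (adjusted p = 0.19), without Foxp1-deficient replicate 1 (adjusted p = 0.087) and without Foxp1-deficient replicate 2 (adjusted p = 0.25).

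Signaling regulators changed in both directions. In the PI3K, Akt and mTOR list 3.77% rose and 11.3% fell, and in the MAP kinase list 1.85% rose and 9.26% fell. Over all tested genes these shares were 2.90% and 2.70%. Of 53 genes of the PI3K, Akt and mTOR pathway, 2 rose and 6 fell, while without the replicate block 1 were called higher and 3 lower, and with 1 library left out in turn 1 to 2 were higher and 3 to 4 lower, the fewest calls without Foxp1-deficient replicate 2. Phlpp1 (ENSMUSG00000044340, chromosome 1 from 106171752 to 106394250 on the plus strand), a phosphatase that removes an activating phosphate from Akt, had 55.9 and 53.6 CPM in WT and 239 and 247 CPM in Foxp1-deficient rTreg cells (log2 fold change 2.15, SE 0.11, adjusted p = 8.6e-05), the largest increase in that list. Eif4ebp1, which encodes the translation inhibitor 4E-BP1, was low and fell to 3.98 and 3.83 CPM from 7.92 and 7.31 CPM (log2 fold change -0.96, SE 0.17, adjusted p = 0.014). Eif4ebp1 lost its call without each of the 4 rTreg libraries in turn (adjusted p = 0.07 to 0.12). Of 54 genes of the MAP kinase pathway, 5 fell and 1 rose, while without the replicate block 1 were called higher and 1 lower, and with 1 library left out in turn 0 to 1 were higher and 0 to 6 lower, the fewest calls without WT replicate 2 and without Foxp1-deficient replicate 2. Mapk12, a p38 kinase, fell from 15.1 and 16.9 CPM to 5.26 and 6.500 CPM (log2 fold change -1.42, SE 0.19, adjusted p = 0.0047), and Map2k6, a kinase that activates p38, rose from 14.4 and 14.9 CPM to 24.1 and 25.6 CPM (log2 fold change 0.76, SE 0.1, adjusted p = 0.0049). Mapk12 lost its call without WT replicate 2 (adjusted p = 0.055) and without Foxp1-deficient replicate 2 (adjusted p = 0.056). Map2k6 lost its call without WT replicate 2 (adjusted p = 0.052) and without Foxp1-deficient replicate 2 (adjusted p = 0.076). Ksr2, a scaffold of the same pathway that was not in the list, had 30.7 and 30.7 CPM in WT and 11.6 and 9.68 CPM in Foxp1-deficient rTreg cells (log2 fold change -1.55, SE 0.15, adjusted p = 0.0013). The phosphatase gene Dusp2 and the stress gene Gadd45a were called lower (-0.66 and -0.89). Dusp2 lost its call without the replicate block (adjusted p = 0.31), without WT replicate 2 (adjusted p = 0.052) and without Foxp1-deficient replicate 2 (adjusted p = 0.05). Gadd45a lost its call without the replicate block (adjusted p = 0.06), without WT replicate 2 (adjusted p = 0.081) and without Foxp1-deficient replicate 2 (adjusted p = 0.11). Dusp2 also belongs to 39 genes that respond within the hour to handling or receptor signals, whose summed level was 13102 and 7886 CPM in WT and 12223 and 7174 CPM in Foxp1-deficient rTreg cells. The sum differed more between replicates than between genotypes, but it was lower in the Foxp1-deficient library of each pair. It includes Hsp90aa1, 1 of the genes that were low in both Foxp1-deficient replicate 1 libraries. Hsp90aa1 had 284 and 340 CPM in WT and 22.2 and 340 CPM in Foxp1-deficient rTreg cells. Part of the difference of the sum in pair 1 is therefore from Hsp90aa1. Of the 39 genes 3 fell (7.69%) and 1 rose (2.56%), with a median of -0.16, and 9 were lower and 3 higher at the adjusted p alone. The part of this response in the result was not tested.

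Regulators of small GTPases, channels and cell contact genes followed. Arhgap32, a GTPase-activating protein, had 1 count in each WT library and 40 and 104 counts in the Foxp1-deficient ones, a ratio of 84.4 with a 95% counting interval of 22.9 to 704. Arhgap11a, which acts in cell division and is in the cell division list, had 8.01 and 9.27 CPM in WT and 23.9 and 25.8 CPM in Foxp1-deficient rTreg cells (log2 fold change 1.52, SE 0.13, adjusted p = 0.00089). Dock6, an exchange factor for Rac and Cdc42, was lower (-1.42). Dock6 lost its call without WT replicate 2 (adjusted p = 0.081) and without Foxp1-deficient replicate 2 (adjusted p = 0.12). Of 62 ion channel genes, 8 fell (12.9%) and 2 rose (3.23%, near the 2.90% over all tested genes). Cacna2d2, an auxiliary subunit of voltage-gated calcium channels, had 10.4 and 8.25 CPM in WT and 2.87 and 2.46 CPM in Foxp1-deficient rTreg cells (log2 fold change -1.79, SE 0.21, adjusted p = 0.0029), and both Foxp1-deficient libraries lay below both WT libraries. For the ion channels, without the replicate block 1 were called higher and 3 lower, and with 1 library left out in turn 1 to 2 were higher and 1 to 6 lower, the fewest calls without Foxp1-deficient replicate 2. Of 42 semaphorin, plexin, ephrin and Notch genes, 7 fell and 2 rose, with a median of -0.20. Plxna3, a receptor for class 3 semaphorins, had 16.1 and 12.4 CPM in WT and 4.94 and 4.62 CPM in Foxp1-deficient rTreg cells (log2 fold change -1.55, SE 0.14, adjusted p = 0.00098). Sema3d, a secreted semaphorin, had 16 and 48 counts in WT and 0 and 1 in Foxp1-deficient libraries, a ratio of 54.6 with a 95% counting interval of 9.45 to 2450. Sema3d lost its call without WT replicate 2 (adjusted p = 0.054) and without Foxp1-deficient replicate 2 (adjusted p = 0.12). Sema6c fell as well (-1.29). Sema6c lost its call without the replicate block (adjusted p = 0.055), without WT replicate 2 (adjusted p = 0.087) and without Foxp1-deficient replicate 2 (adjusted p = 0.13). For the guidance genes as a list, without the replicate block 0 were called higher and 3 lower, and with 1 library left out in turn 0 were higher and 1 to 5 lower, the fewest calls without Foxp1-deficient replicate 2.

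**Figure D3:**
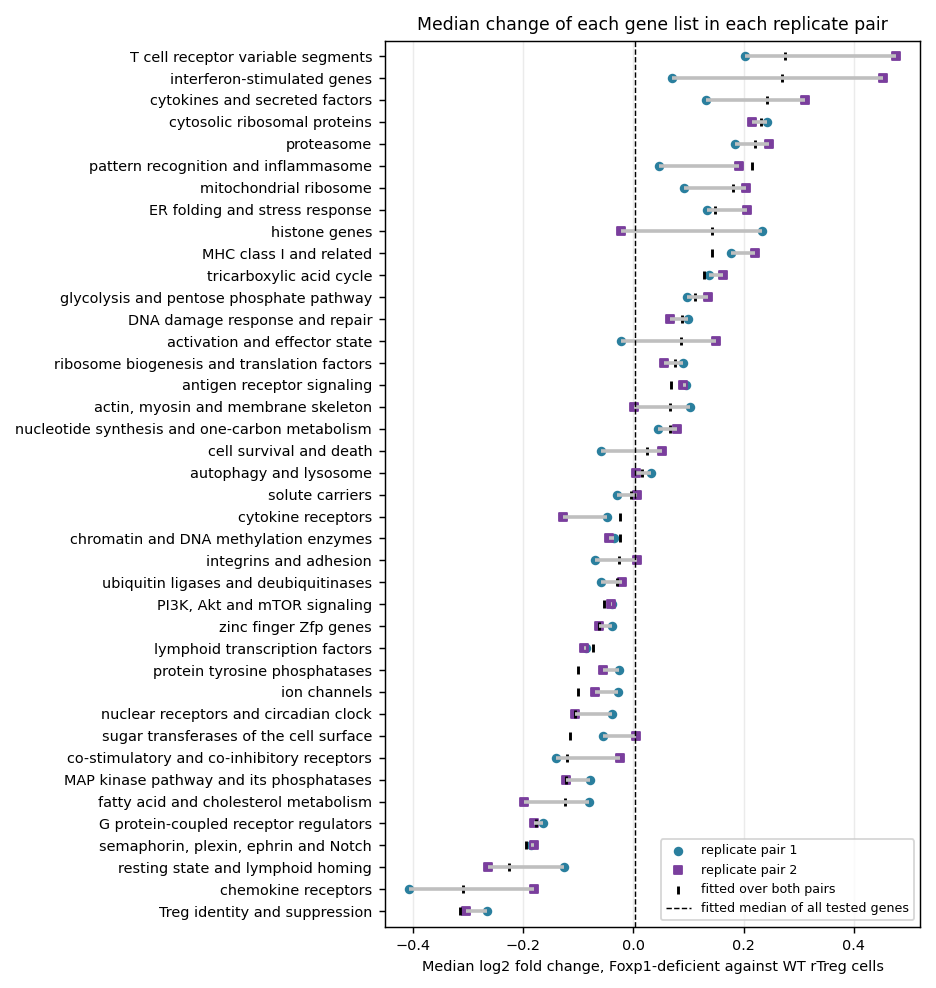
Median log2 fold change of gene lists with at least 20 tested members, in replicate pair 1 (blue circles), in pair 2 (purple squares) and in the fit over both (black ticks); the dashed line is the fitted median of all tested genes. Treg identity lies at -0.27 and -0.30 in the pairs and cytosolic ribosomal proteins at 0.24 and 0.22, while interferon-stimulated genes differ between the pairs at 0.070 and 0.45.

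Transcription factors of lymphocytes fell more often than they rose, with 11 lower and 4 higher of 119 tested. The shares were 9.24% lower and 3.36% higher, beside 2.70% and 2.90% over all tested genes. Pou6f1 (ENSMUSG00000009739, chromosome 15 from 100575318 to 100599984 on the minus strand), a POU domain factor, fell from 78.8 and 82.3 CPM to 25.8 and 27.4 CPM (log2 fold change -1.597, SE 0.068, adjusted p = 3.4e-05). Pou2f2, the octamer factor Oct2, fell from 151 and 172 CPM to 73.2 and 76.8 CPM (log2 fold change -1.104, SE 0.13, adjusted p = 0.0027). Thra, the thyroid hormone receptor alpha, fell from 35.8 and 34.2 CPM to 14.03 and 9.75 CPM (log2 fold change -1.599, SE 0.15, adjusted p = 0.0011). Thra belongs to another list, of 36 nuclear receptor and circadian clock genes, of which 3 fell (8.33%) and 0 rose. Without the replicate block 1 of that list was called lower. In Pou6f1, Pou2f2 and Thra, as in Plagl1, the genotypes were apart and the replicates close. Ikzf3, which encodes the Ikaros family factor Aiolos, was lower at 463 and 443 CPM in WT and 296 and 268 CPM in Foxp1-deficient rTreg cells (log2 fold change -0.69, SE 0.11, adjusted p = 0.0082). Ikzf3 lost its call without the replicate block (adjusted p = 0.071), without WT replicate 2 (adjusted p = 0.075), without Foxp1-deficient replicate 1 (adjusted p = 0.07) and without Foxp1-deficient replicate 2 (adjusted p = 0.095). The circadian clock genes Dbp and Nr1d2 were called lower with log2 fold changes of -0.78 and -0.64. Dbp lost its call without the replicate block (adjusted p = 0.12). Nr1d2 lost its call without the replicate block (adjusted p = 0.05), with counts thinned to the shallowest library (adjusted p = 0.017, a change below 1.5-fold) and without Foxp1-deficient replicate 2 (adjusted p = 0.069). Over the lymphoid factors, without the replicate block 0 were called higher and 5 lower, and with 1 library left out in turn 1 to 3 were higher and 4 to 12 lower, the fewest calls without Foxp1-deficient replicate 2. Of 322 genes named Zfp with a number, most of them zinc finger factors, 9 fell and none rose, a share of 2.80% lower that is near the background, and the median was -0.063. Of the Zfp genes, without the replicate block 0 were called higher and 1 lower, and with 1 library left out in turn 0 to 1 were higher and 1 to 4 lower, the fewest calls without Foxp1-deficient replicate 2. Of 223 ubiquitin ligases and deubiquitinases 8 fell and 1 rose, a share of 3.59% lower that is also close to the background, while without the replicate block 0 were called higher and 4 lower, and with 1 library left out in turn 0 to 1 were higher and 2 to 5 lower, the fewest calls without Foxp1-deficient replicate 2. Usp28, a deubiquitinase that stabilizes Myc, had 63.5 and 74.9 CPM in WT and 36.98 and 31.8 CPM in Foxp1-deficient rTreg cells (log2 fold change -1.03, SE 0.11, adjusted p = 0.0022).

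Metabolic genes showed a few clear increases and small shifts of whole lists. In the glycolysis and pentose phosphate list 2.7% rose, near the 2.90% over all tested genes. In the fatty acid and cholesterol list 7.46% rose and 7.46% fell. Tkt was the called member among 37 genes of glycolysis and the pentose phosphate pathway, in which 12 were higher and 2 lower at the adjusted p alone. Idh3a, a subunit of the isocitrate dehydrogenase of the tricarboxylic acid cycle, had 48.7 and 44.9 CPM in WT and 99.1 and 99.4 CPM in Foxp1-deficient rTreg cells (log2 fold change 1.09, SE 0.063, adjusted p = 0.00013), and 23 of the 27 tested genes of the cycle had a log2 fold change above 0. Of 67 genes of fatty acid and cholesterol metabolism 5 rose and 5 fell, while without the replicate block 4 were called higher and 3 lower, and with 1 library left out in turn 4 to 6 were higher and 2 to 3 lower, the fewest calls without Foxp1-deficient replicate 2. Fasn, the fatty acid synthase, had 287 and 289 CPM in WT and 546 and 469 CPM in Foxp1-deficient rTreg cells (log2 fold change 0.81, SE 0.079, adjusted p = 0.0013), and Acot7, an acyl-CoA thioesterase, had 18.3 and 19.9 CPM in WT and 60.1 and 79.1 CPM in Foxp1-deficient rTreg cells (log2 fold change 1.87, SE 0.1, adjusted p = 0.0001). Acsbg1, an acyl-CoA synthetase found in Treg cells, had 40.6 and 53.3 CPM in WT and 96.9 and 101 CPM in Foxp1-deficient rTreg cells (log2 fold change 1.08, SE 0.094, adjusted p = 0.00089). Ephx1, the microsomal epoxide hydrolase, fell from 201 and 185 CPM to 85.4 and 86.3 CPM (log2 fold change -1.16, SE 0.1, adjusted p = 0.00091), and Abca1, the cholesterol efflux pump, was called lower at 81.2 and 49.6 CPM in WT and 37.9 and 31.3 CPM in Foxp1-deficient rTreg cells (log2 fold change -0.899, SE 0.17, adjusted p = 0.017). Abca1 lost its call without the replicate block (adjusted p = 0.097), without WT replicate 1 (adjusted p = 0.058), without Foxp1-deficient replicate 1 (adjusted p = 0.098) and without Foxp1-deficient replicate 2 (adjusted p = 0.16). Among 55 sugar transferases B4galnt4 and St8sia6 fell, a share of 3.64% lower that is near the 2.70% over all tested genes. B4galnt4, which adds N-acetylgalactosamine, had 35.6 and 24.5 CPM in WT and 7.81 and 4.98 CPM in Foxp1-deficient rTreg cells (log2 fold change -2.28, SE 0.22, adjusted p = 0.0013), and St8sia6, a sialyltransferase, had 204 and 268 CPM in WT and 102 and 127 CPM in Foxp1-deficient rTreg cells (log2 fold change -1.04, SE 0.093, adjusted p = 0.00098). St8sia6 lost its call without the replicate block (adjusted p = 0.13).

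Genes for nucleotide synthesis, repair and chromatin had called members in the higher direction and none in the lower. The shares higher were 9.09%, 12.1% and 6.06%, beside 2.90% over all tested genes. Of 55 genes for nucleotides and one-carbon metabolism, 5 rose, while without the replicate block 3 were called higher and 0 lower, and with 1 library left out in turn 3 were higher and 0 lower. Adss, an enzyme of AMP synthesis, had 136 and 115 CPM in WT and 227 and 201 CPM in Foxp1-deficient rTreg cells (log2 fold change 0.77, SE 0.058, adjusted p = 0.00053), and Rrm2, the ribonucleotide reductase subunit that is also in the cell division list, had 4.14 and 4.56 CPM in WT and 13.2 and 17.1 CPM in Foxp1-deficient rTreg cells (log2 fold change 1.796, SE 0.17, adjusted p = 0.0011). Of 91 repair genes 11 rose, of which 2, Clspn and Neil3, were in the cell division list. Clspn, a mediator of the replication checkpoint, had 0.553 and 0.628 CPM in WT and 4.62 and 7.37 CPM in Foxp1-deficient rTreg cells (log2 fold change 3.33, SE 0.36, adjusted p = 0.0023). Several of the others, such as Brca1 and Lig1, are known to act at replication forks. Over the repair genes, without the replicate block 4 were called higher and 0 lower, and with 1 library left out in turn 1 to 7 were higher and 0 lower, the fewest calls without WT replicate 2 and without Foxp1-deficient replicate 2. Of 99 chromatin genes 6 rose, although 18 were lower and 8 higher at the adjusted p alone and the median was -0.025. Uhrf1, which recruits the maintenance DNA methyltransferase, had 8.66 and 10.7 CPM in WT and 31.7 and 34.9 CPM in Foxp1-deficient rTreg cells (log2 fold change 1.78, SE 0.14, adjusted p = 0.0007). Hells, a remodeler needed for DNA methylation, had 7.83 and 6.99 CPM in WT and 16.1 and 14.2 CPM in Foxp1-deficient rTreg cells (log2 fold change 1.02, SE 0.13, adjusted p = 0.004), and Chd7, another remodeler, had 128 and 143 CPM in WT and 231 and 247 CPM in Foxp1-deficient rTreg cells (log2 fold change 0.82, SE 0.088, adjusted p = 0.0021). Hdac9, a class IIa histone deacetylase, was called higher at 3.500 and 0.864 CPM in WT and 12.6 and 10.5 CPM in Foxp1-deficient rTreg cells (log2 fold change 2.48, SE 0.37, adjusted p = 0.0073). Hdac9 lost its call without the replicate block (adjusted p = 0.061) and without Foxp1-deficient replicate 2 (adjusted p = 0.081).

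The widest shifts of whole lists were small in size and lay in protein synthesis and breakdown. Of 85 cytosolic ribosomal protein genes, 83 had a log2 fold change above 0 and 43 were higher at the adjusted p alone, but 1 reached 1.5-fold. Their median was 0.23, with 0.24 and 0.22 in the pairs, and it lay between 0.19 and 0.24 over the alternatives, lowest with the gene length trend removed. Of 5 equal classes of tested genes by length, the shortest had a median of 0.11 and the longest -0.057. In aTreg cells the median of the ribosomal proteins was -0.037. Rpl29, the called member, had 193 and 200.3 CPM in WT and 282 and 345 CPM in Foxp1-deficient rTreg cells (log2 fold change 0.68, SE 0.16, adjusted p = 0.033), and Rpl29 lost its call without the replicate block (adjusted p = 0.1) and without each of the 4 rTreg libraries in turn (adjusted p = 0.052 to 0.27). Reads of ribosomal proteins can be split with processed pseudogenes, of which 740 tested had a median of 0.26. Rps2 and Rps18 were low in WT replicate 2 alone. Rps2 had 1070 and 31.8 CPM in WT and 1377 and 1075 CPM in Foxp1-deficient rTreg cells, and Rps18 had 726 and 94.7 CPM in WT and 851 and 852 CPM in Foxp1-deficient cells. Rpl12 was low in Foxp1-deficient replicate 1 alone, at 135 CPM against 801 to 921 CPM in the other 3 libraries. These 3 genes passed no threshold, and the median of the list was little moved by leaving out either library.

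The proteasome and the mitochondrial ribosome moved the same way. Of 41 proteasome genes, 38 had a log2 fold change above 0 and 13 were higher at the adjusted p alone, with a median of 0.22 that lay between 0.18 and 0.26 over the alternatives. Psmb5, a catalytic subunit, had 17.4 and 15.4 CPM in WT and 28.1 and 34.95 CPM in Foxp1-deficient rTreg cells (log2 fold change 0.95, SE 0.15, adjusted p = 0.0098), and Psmb5 lost its call without WT replicate 2 (adjusted p = 0.099) and without Foxp1-deficient replicate 2 (adjusted p = 0.13). In aTreg cells the proteasome median was 0.12. At the adjusted p alone 6 of 77 mitochondrial ribosomal protein genes were higher, near the share of 956 of 14540 over all tested genes. Of the 77 genes 70 were above 0, with a median of 0.18. Their median was 0.091 in pair 1 and 0.20 in pair 2, and it was 0.11 without Foxp1-deficient replicate 2. Of 40 genes of protein folding in the endoplasmic reticulum 13 were higher and 1 lower at the adjusted p alone, with a median of 0.15. Among 56 ribosome biogenesis and translation factor genes, Wdr12, a factor for the large ribosomal subunit, had 26.2 and 31.03 CPM in WT and 49.4 and 56.8 CPM in Foxp1-deficient rTreg cells (log2 fold change 0.89, SE 0.1, adjusted p = 0.0026), and the median was 0.075. This list holds 4 of the 8 tested genes whose symbol is Rrp with a number, which encode ribosomal RNA processing factors. The Rrp genes were low in both Foxp1-deficient replicate 1 libraries, by 3.20- to 7.87-fold in rTreg and 4.76- to 15.4-fold in aTreg cells against the mean of the 6 libraries of other pairs. Rrp1 had 272 and 260 CPM in WT and 42.4 and 254 CPM in Foxp1-deficient rTreg cells. The mitochondrial ribosomal RNA mt-Rnr2 had 581 and 544 CPM in WT and 20.4 and 578 CPM in Foxp1-deficient rTreg cells. No value of these genes was read as a genotype effect.

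**Figure D4:**
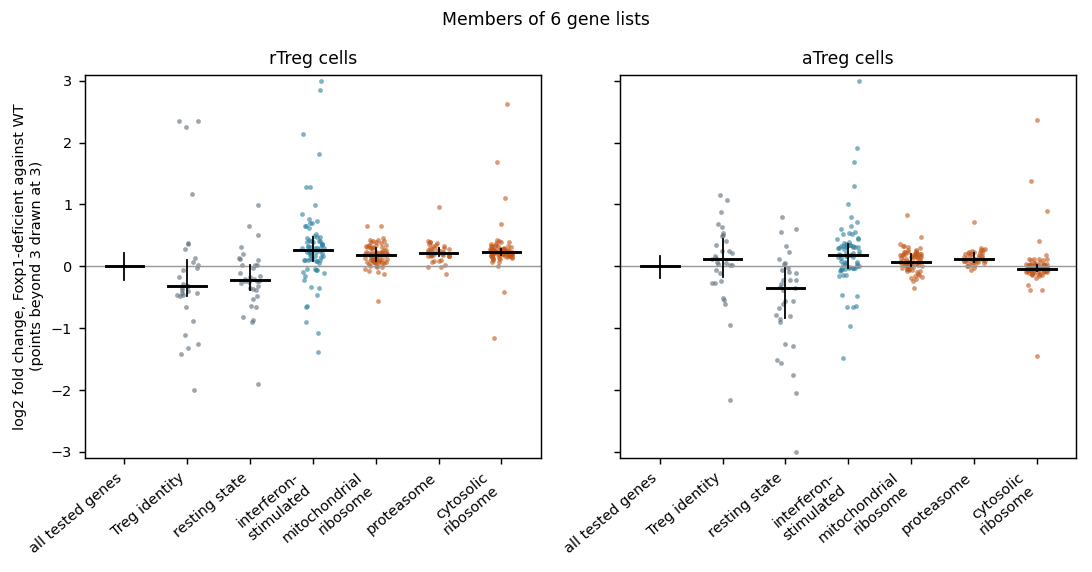
Log2 fold change of each tested member (points) of 6 gene lists in rTreg cells (left) and aTreg cells (right), with the median (bar) and quartiles (line) of the list and of all tested genes; points beyond 3 are drawn at 3. In rTreg cells the cytosolic ribosomal proteins lie in a narrow band above 0 with a median of 0.23, in aTreg cells around -0.037.

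Interferon-stimulated genes leaned higher, but unevenly between the pairs. Of 74 tested, 9 rose and 3 fell, and 58 had a log2 fold change above 0. The median was 0.27, with 0.070 in pair 1 and 0.45 in pair 2, and it lay between 0.11 and 0.41 over the alternatives. Beside Ifi204 and Gbp11, Oas1a, a sensor of double-stranded RNA, had 12.4 and 12.2 CPM in WT and 39.05 and 71.2 CPM in Foxp1-deficient rTreg cells (log2 fold change 2.14, SE 0.23, adjusted p = 0.0021). Oas2, Ifi44, the GTPase genes Igtp and Tgtp2, Ly6a and Ly6c1 were called higher too. Ifi44 was low at 2.303 and 2.12 CPM in WT and 6.38 and 9.39 CPM in Foxp1-deficient rTreg cells, and Ifi44 lost its call without the replicate block (adjusted p = 0.14) and without each of the 4 rTreg libraries in turn (adjusted p = 0.059 to 0.24). Ly6c1 lost its call without the replicate block (adjusted p = 0.28), with DESeq2 (adjusted p = 0.41), with median-of-ratios size factors (adjusted p = 0.051), with upper-quartile scaling (adjusted p = 0.051) and without each of the 4 rTreg libraries in turn (adjusted p = 0.2 to 0.24). Samhd1, Gbp3 and Ifi209 were called lower. Over this list, without the replicate block 4 were called higher and 0 lower, and with 1 library left out in turn 4 to 9 were higher and 0 to 2 lower, the fewest calls without Foxp1-deficient replicate 2. Of 38 genes for pattern recognition 3 rose and 1 fell, while without the replicate block 0 were called higher and 1 lower, and with 1 library left out in turn 0 to 1 were higher and 1 to 2 lower, the fewest calls without WT replicate 2 and without Foxp1-deficient replicate 2. The share of this list that fell, 2.63%, was near the 2.70% over all tested genes, and 7.89% rose, beside 2.90%. Nod1, a sensor of bacterial cell wall fragments, fell from 129.8 and 149.5 CPM to 65.5 and 62.2 CPM (log2 fold change -1.13, SE 0.1, adjusted p = 0.0011), and Tlr6, a Toll-like receptor, was called higher at 7.37 and 6.52 CPM in WT and 11.5 and 18.3 CPM in Foxp1-deficient rTreg cells (log2 fold change 1.09, SE 0.23, adjusted p = 0.024). Tlr6 lost its call without the replicate block (adjusted p = 0.14), without WT replicate 2 (adjusted p = 0.2), without Foxp1-deficient replicate 1 (adjusted p = 0.067) and without Foxp1-deficient replicate 2 (adjusted p = 0.24). Of 29 class I genes 3.45% rose, near the 2.90% over all tested genes, and 6.9% fell. Cd1d1, which presents lipids, rose from 53.1 and 53.7 CPM to 102 and 88.3 CPM (log2 fold change 0.83, SE 0.072, adjusted p = 0.00089). H2-T3 and Raet1d were called lower with 0 counts in both Foxp1-deficient libraries, but their WT levels came from 1 library each, with 2 and 56 counts of H2-T3 and 93 and 2 of Raet1d. H2-T3 lost its call without the replicate block (adjusted p = 0.3), without WT replicate 2 (adjusted p = 0.15) and without Foxp1-deficient replicate 2 (adjusted p = 0.48). Raet1d lost its call without the replicate block (adjusted p = 0.31), with limma-voom (adjusted p = 0.09), with DESeq2 (adjusted p = 0.18) and without each of the 4 rTreg libraries in turn (adjusted p = 0.074 to 0.4).

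Markers of some other cells moved with the genotype. Of 10 tested genes of plasma cells and immunoglobulin, 4 were higher, and their summed level was 16.4 and 6.05 CPM in WT and 92.9 and 65.0 CPM in Foxp1-deficient rTreg cells. Of 11 tested granulocyte genes 6 were higher, with sums of 2.03 and 0.707 CPM in WT and 27.1 and 9.46 CPM in Foxp1-deficient cells. Of 13 tested B cell genes 3 were higher, with sums of 193 and 240 CPM against 276 and 295 CPM. The defining B cell genes Ms4a1, Pax5, Ebf1, Blk and Fcrla, the plasma cell gene Sdc1 and the granulocyte genes Ly6g, Cxcr2, Csf3r and Camp had at most 3 counts in every rTreg library. The genes that were higher included Ighg1, Ighg2c, Igkc and Jchain of plasma cells and Mpo, Prtn3, Ctsg, S100a8 and S100a9 of granulocytes and their precursors. The dendritic cell sums were 124 and 111 CPM in WT and 149.8 and 157 CPM in Foxp1-deficient cells, with Irf8 called higher and Tcf4 lower of 7 tested. Erythroid cell and platelet markers moved the other way, with sums of 70.4 and 62.9 CPM in WT and 51.5 and 36.0 CPM in Foxp1-deficient cells, and 1 of 4 tested, Gata1, was called lower. The monocyte, NK and CD8 T cell, and stromal sums overlapped or differed by little between the genotypes, at 26.5 to 30.4, 31.3 to 33.2 and 260 to 295 CPM. The part of these cells in the interferon, pattern recognition and secreted factor results was not tested.

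Promoters were searched for 2 short words, 1 promoter for each tested gene that had one. Called genes without a promoter were left out, and those of the cell division list were kept. Promoters, from 250 bases before to 50 after a start site, came from RefSeq (GRCm38.p6) and were found by symbol for 9703 tested genes. The forkhead word TGTTTAC, on either strand, was present in 2.43% of them, in 2.68% of 299 promoters of genes that rose and in 3.07% of 293 of genes that fell. The word TTTCCCGC is a site of the E2F factors that drive the cell cycle. It was present in 2.14% of all, in 4.68% of promoters of genes that rose and in 0.683% of genes that fell. The genes that rose include 89 of the cell division list, and the share without them was not computed. Among the named genes that changed, the forkhead word lay in the promoter of Txnip and the E2F word in that of Hells. Both are shown over 100 bases around the word, all before the start site, with the word in capitals, which in Txnip reads on the opposite strand.
Txnip (chr3:96557790-96557889, plus strand): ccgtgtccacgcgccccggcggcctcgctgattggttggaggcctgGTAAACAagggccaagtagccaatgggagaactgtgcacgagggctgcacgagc
Hells (chr19:38930882-38930981, plus strand): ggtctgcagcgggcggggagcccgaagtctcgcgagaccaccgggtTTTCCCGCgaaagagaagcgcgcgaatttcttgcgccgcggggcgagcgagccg
The words start 121 bases before the start site in Txnip and 62 before it in Hells. A match is a description of the letters in this window and does not show binding.

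The genotype effect in rTreg cells differed from that in aTreg cells in 48 of the 14540 genes, or 0.330%, by the interaction term of the same fit at an adjusted p below 0.05. The aTreg comparison has its own WT libraries. Of the named genes, 19 were among the 48. For Ahnak the log2 fold change was -2.27 in rTreg and -0.0044 (SE 0.056, adjusted p = 0.97) in aTreg cells, where the WT levels were 1356 and 1762 CPM and the Foxp1-deficient levels 1318 and 1800 CPM. The difference was 2.27 (adjusted p = 7.8e-05). Cd55 fell in rTreg cells and had a log2 fold change of -0.03 (SE 0.16, adjusted p = 0.94) in aTreg cells, a difference of 2.22 (adjusted p = 0.023). Crip1 and Il1rl1 fell in rTreg cells and had log2 fold changes of 0.52 and 0.91 in aTreg cells. Among genes that rose in both subsets, the increase was larger in rTreg cells for Ptprf (difference -1.395 (adjusted p = 0.019)), Qpct (difference -3.396 (adjusted p = 0.031)) and Phlpp1 (difference -1.22 (adjusted p = 0.03)). Itga4 and Ecm1 had the same order. Without the replicate block no gene passed this test, with 884 genes at an unadjusted p below 0.05, and with limma-voom 43 genes passed it.

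**Figure D5:**
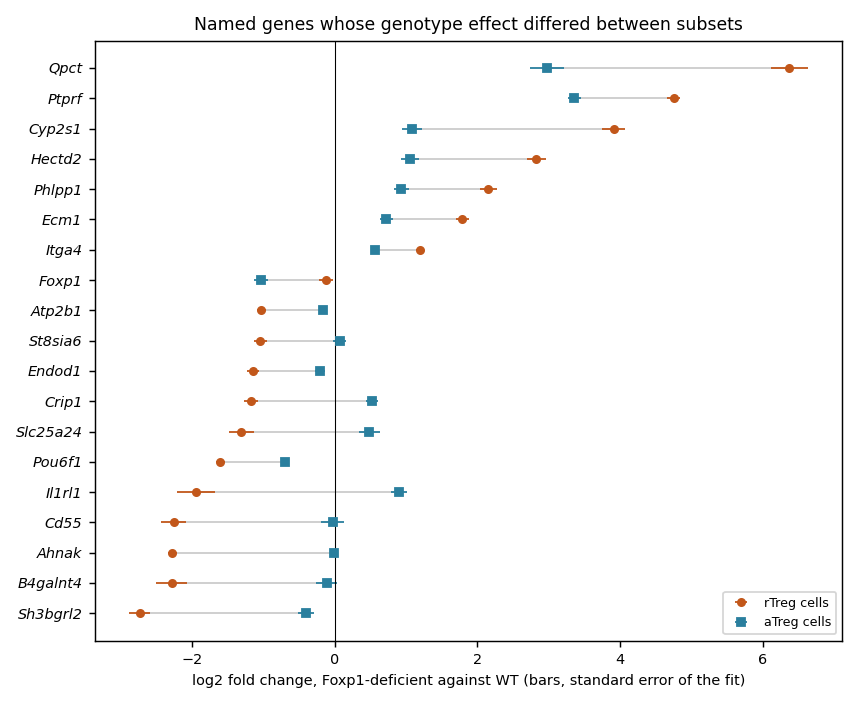
Log2 fold change of Foxp1-deficient against WT cells with the standard error of the fit in rTreg (orange circles) and aTreg cells (blue squares) for the 19 named genes whose genotype effect differed between the subsets. For Ahnak the rTreg value is -2.27 and the aTreg value lies at 0, and for Foxp1 itself the aTreg value (-1.03) is the lower one.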

How the data were processed

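RNA-seq libraries were made by the submitters from total RNA (Trizol) of sorted cells with the NEBNext Ultra kit. The authors ran trim_galore for trimming, Picard to drop duplicate reads and htseq-count to count reads per gene, and the submitters' processing notes name HISAT2 2.0.5 and mm10. Whether counting used strand is not given in the sources used here, so overlapping and antisense genes are uncertain. The deposited values are whole-number counts per gene, without normalization. The authors also deposited FPKM values, which equal the counts divided by library total and gene length and were used only for the lengths.

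The 27594 genes were filtered with filterByExpr (minimum count 10), which left 14540. All 8 libraries entered one edgeR 4.0.16 quasi-likelihood fit (R 4.3.3, TMM normalization) with a mean for each of 4 groups and the replicate number as a block, after the paired analysis in the study's methods, with Benjamini-Hochberg adjustment over the tested genes. The fit had 3 residual degrees of freedom. The block rests on the replicate numbers in the labels and the stated pairing. Deviations of same-numbered libraries from their group means correlated at 0.462 between the rTreg groups and at 0.355 to 0.597 over all pairs of groups, across genes that are not independent replicates. The highest were between rTreg and aTreg libraries of the same genotype, at 0.597 in WT and 0.548 in Foxp1-deficient cells. The fit treats those libraries as independent once group and replicate number are taken out, so the adjusted p-values may be too small. Calls required an adjusted p below 0.05 and a 1.5-fold change. Replicates differed by more than sampling noise in each group. The pipeline was tested on simulated data. Floors and intervals (exact, 95%) cover counting error, since reads carry no molecular identifiers. Alternatives were no block, limma-voom (limma 3.58.1), DESeq2 1.42.0, median-of-ratios and upper-quartile scaling, no low-count filter, the 4 rTreg libraries alone, thinned counts, removal of the gene length trend, and each rTreg library left out.

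The gene lists, the members and the naming rule were chosen with earlier results of these data known. Named genes were Foxp1, Foxp3, Cd4, Cd44 and a sorting marker that is not reported here, the 12 largest increases and decreases and the 10 most abundant called genes in each direction (same direction by 1.5-fold in both pairs, mean of at least 10 CPM, no cell division gene, Gm, Rik or receptor segment symbol), and in each list up to 4 called members with the largest change (mean of at least 1 CPM, same direction in both pairs). Not all were printed. Members of a list given by name without a value, the marker genes, Ksr2's place outside its list, and Rps2, Rps18, Rpl12, Rrp1 and mt-Rnr2 were chosen after their values were seen. Exon counts were not used here.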

Additional observations from a re-analysis of the deposited data

Results flagged for a closer look

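In 19 named genes the genotype effect differed between aTreg and rTreg cells by the interaction term of the edgeR quasi-likelihood fit, at a Benjamini-Hochberg adjusted p below 0.05. Differences are given as the aTreg minus the rTreg log2 fold change. The increase in Foxp1-deficient cells was smaller in aTreg than in rTreg cells for Qpct (-3.396 (adjusted p = 0.031)), Cyp2s1 (-2.82 (adjusted p = 0.0086)), Hectd2 (-1.77 (adjusted p = 0.023)), Ptprf (-1.395 (adjusted p = 0.019)), Phlpp1 (-1.22 (adjusted p = 0.03)), Ecm1 (-1.07 (adjusted p = 0.027)) and Itga4 (-0.63 (adjusted p = 0.03)). Lower levels in rTreg cells were less low, absent or turned in aTreg cells for Il1rl1 (2.84 (adjusted p = 0.02)), Sh3bgrl2 (2.33 (adjusted p = 0.0086)), Ahnak (2.27 (adjusted p = 7.8e-05)), Cd55 (2.22 (adjusted p = 0.023)), B4galnt4 (2.17 (adjusted p = 0.028)), Slc25a24 (1.79 (adjusted p = 0.031)), Crip1 (1.69 (adjusted p = 0.0086)), St8sia6 (1.11 (adjusted p = 0.027)), Endod1 (0.93 (adjusted p = 0.027)), Pou6f1 (0.903 (adjusted p = 0.02)) and Atp2b1 (0.87 (adjusted p = 0.019)). Foxp1 itself was lower in aTreg cells by the larger step (-0.92 (adjusted p = 0.048)). None of these differences passed the test without the replicate block.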

How the results depend on the processing

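The numbers of called genes depended on the replicate block and on single libraries. The paired analysis with the block called 421 genes higher and 393 lower. Without the replicate block these were 159 and 107, and the 48 genes whose effect differed between subsets became 0. With 1 rTreg library left out, between 147 and 269 genes were higher and between 67 and 213 lower, the fewest lower without Foxp1-deficient replicate 2. In these fits the lone sample of a group is assumed to vary like the other groups. Without the filter on low counts 607 were lower. The other settings moved no count by more than 1.5 times. The log2 fold change of each named gene kept its sign in every alternative that tested it. Called genes were named only if both pairs changed the same way, so their sign was largely set by that rule. Among the 393 genes called lower, 2 changed sign without Foxp1-deficient replicate 2. Of the 149 named genes called, 82 kept the call without the block, and between 70 and 109 with 1 library left out. DESeq2 gave no adjusted p for 2 of them. For 36 of the 42 lists the median kept its side of the median over all genes in the 13 alternatives. Median-of-ratios and upper-quartile scaling gave 49.1% and 49.3% of calls higher, against 51.7%, and the fit without Foxp1-deficient replicate 2 gave 68.7%. The total of 6373170 counts in Foxp1-deficient replicate 1 limits what can be said of genes near 0.471 CPM.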

Other observations

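A few genes followed 1 genotype and replicate number in both subsets. Both WT replicate 2 libraries were apart from the 6 others in 16 genes. Rps2 had 31.8 CPM in rTreg and 24.4 CPM in aTreg cells of that pair, against 806 to 1377 CPM elsewhere, while Rps2-ps10, a processed copy of it by name, had 414 and 307 CPM there and 11.4 to 43.0 CPM elsewhere. Strc had 36.4 and 28.3 CPM there and at most 2.52 CPM elsewhere. Both Foxp1-deficient replicate 1 libraries were low in 12 genes, which include the ribosomal RNA genes mt-Rnr1, mt-Rnr2 and Rn18s-rs5, the processing factors Rrp1, Rrp1b, Rrp7a, Rrp12 and Rrp15, and the chaperone gene Hsp90aa1. Hsp90aa1 had 22.2 CPM in rTreg and 27.0 CPM in aTreg cells of that pair, against 284 to 343 CPM elsewhere. Both WT replicate 1 libraries had 270 and 298 CPM of Ctse, an endosomal protease gene, against 36.1 to 59.7 CPM elsewhere. In both Foxp1-deficient replicate 2 libraries Wdfy4 was low, at 0.433 and 0.791 CPM, against 15.1 to 38.3 CPM elsewhere. The cause of these patterns was not tested.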
